A study of Mus musculus with 10 samples.

Results

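The genes of the major histocompatibility complex (MHC) and of antigen processing were examined in the kidneys of Pkd2 mutant mice with and without miR-21. Members were every row whose name begins with H2-, the mouse MHC prefix, together with 16 named genes of antigen processing and presentation. They came to 58 of the 30431 rows in each table. By role they were 30 class I heavy chain genes, 12 genes of class I peptide supply and assembly, 12 class II genes, 2 class I-like genes outside the H2 complex and 2 genes whose H2- name is positional only. No member was left out, although 10 lay at the lowest level in the tables and a further 11 averaged under 1 CPM, the read count scaled to library size. The 10 were H2-Ea-ps, H2-L, H2-M1, H2-T9 and the 6 H2-M10 genes, and they had a log2 fold change of 0 in all 3 comparisons.

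Whole kidneys were taken at postnatal day 21 from 4 wild-type mice (WT), 3 mice of genotype Pkhd1Cre; Pkd2 F/F (SM) and 3 mice of genotype Pkhd1Cre; Pkd2 F/F; miR-21null (DM), and total RNA was sequenced. Pkd2 encodes the channel polycystin-2, whose loss causes polycystic kidney disease, and Pkhd1Cre is known to delete floxed alleles mainly in collecting duct epithelium, so most kidney cells keep Pkd2. The labels name no strain, H2 haplotype or sex, no miR-21 null group with intact Pkd2, and no Cre-only group. Values were deposited for the comparisons and none was analysed per animal, so the spread between animals is known only through the test statistics.

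MHC class I molecules are found on nearly all nucleated cells and show CD8 T cells peptides made in the cytosol by the proteasome, carried into the endoplasmic reticulum by the TAP transporter and loaded onto a heavy chain paired with beta-2 microglobulin. MHC class II molecules are found mainly on dendritic cells, macrophages and B cells, and on epithelium under inflammation. They show CD4 T cells peptides from the endosome, with the invariant chain Cd74 guarding the groove until H2-DM exchanges it for peptide. Interferon gamma raises both systems, class I through the transactivator Nlrc5 and class II through the transactivator Ciita, which act at conserved promoter boxes named X and Y.

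The promoter boxes are shown because class I and class II members share them. Each stretch below is from the RefSeq promoter table (GRCm38.p6), 5′ to 3′ on the plus strand, which is also the strand of each gene here. Capitals mark the X box core ACNGATG and the reversed Y box ATTGG.
H2-Eb1, chr17:34305771-34305820: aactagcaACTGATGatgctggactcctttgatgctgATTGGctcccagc
H2-DMb1, chr17:34153092-34153142: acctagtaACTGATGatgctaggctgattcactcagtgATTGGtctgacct
H2-DMb2, chr17:34145121-34145171: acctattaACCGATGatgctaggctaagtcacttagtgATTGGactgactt
H2-Eb2, chr17:34325538-34325587: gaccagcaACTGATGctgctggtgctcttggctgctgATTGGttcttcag
H2-D1, chr17:35262980-35263030: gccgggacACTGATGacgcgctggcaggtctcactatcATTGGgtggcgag
H2-Q4, chr17:35379500-35379550: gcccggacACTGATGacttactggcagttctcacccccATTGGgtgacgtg
H2-M3, chr17:37270175-37270225: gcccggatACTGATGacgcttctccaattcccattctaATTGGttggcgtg
H2-Q7, chr17:35439078-35439127: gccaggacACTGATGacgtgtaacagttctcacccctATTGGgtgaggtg

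In H2-Eb1 the X core began 88 bases and the reversed Y box 59 bases before the RefSeq start site. In H2-D1 the distances were 106 and 76 bases, and in H2-M3 51 and 21 bases. The H2-D1 stretch lies inside the GENCODE M21 span of that gene (GRCm38, chromosome 17, 35262730 to 35267499), which starts further upstream than the RefSeq model. So do the stretches of H2-DMb1 and H2-DMb2, whose spans start at 34153072 and 34143307. The H2-M3 stretch runs into its span, which starts at 37270220. The table held a window of 250 bases before to 50 after the start for 40 of the 58 members and for 27025 genes in all. With both strands searched, ACNGATG was in the windows of 6 of 8 class II genes, 11 of 21 class I heavy chain genes and 2 of 9 supply genes, against 11.2% of all genes. CCAAT was in 8 of 8, 18 of 21 and 4 of 9, against 41.1% of all genes. Both lay within 40 bases of each other in 4 of 8, 6 of 21 and 0 of 9, against 1.14% of all genes. The tighter layout printed above, with X and reversed Y starting 29 or 30 bases apart, was a spacing chosen after the matches were seen. It was in 11 of the 27025 genes (0.0407%), of which 8 were the members printed and the others were H2-Q6, which is no row of the tables, BC051142 and Scaper. A match describes letters in a window and was not tested as a binding site.

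The interferon-stimulated core AAANNGAAA was in 3 of 9 supply genes (B2m, Erap1 and Psme1), 4 of 21 heavy chain genes and 2 of 8 class II genes, against 12.1% of all genes. The gamma-activated site TTCNNNGAA was in 1 of 9 supply genes (Psmb8), 2 of 21 heavy chain genes (H2-M3 and H2-M11) and 1 of 8 class II genes (H2-DMb2). These shares were near the 9.55% of all genes. These stretches show these motifs, in capitals, in a gene of class I assembly and a gene of peptide supply.
B2m, chr2:122147534-122147572: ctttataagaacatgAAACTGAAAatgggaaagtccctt
Psmb8, chr17:34198083-34198121: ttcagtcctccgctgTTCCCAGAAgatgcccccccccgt

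The genotype labels were checked first. The Pkd2 log2 fold change in the authors' deposited table was -0.41 (implied SE 0.20, adjusted p = 0.18) for SM against WT and -0.49 (implied SE 0.20, adjusted p = 0.084) for DM against WT, and neither passed. The implied standard error (SE) is the log2 fold change divided by the root of its likelihood ratio. The Mir21 row lay at the lowest level, so it checks nothing. Markers of kidney tubule were abundant in every group, with a summed level of 13703 CPM in WT, 7237 CPM in SM and 7947 CPM in DM, and 5 of 7 fell in SM and 4 of 7 in DM against WT. A gene is called here at an adjusted p below 0.05 in the deposited edgeR test. Whole kidney RNA cannot tell more cells of a type from more RNA per cell.

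Of the 58 members, 5 rose and 1 fell in SM against WT, and 24 rose and 0 fell in DM against WT. Class II genes made up 4 of the 5 that rose in SM. Per the authors' deposited table, 4 of 12 class II genes passed as higher in SM and 9 of 12 in DM, each against WT, with none lower. The median log2 fold change over the 12 was 1.24 and 2.73 in those comparisons. Over all 30431 rows, 7.87% were called higher and 6.09% lower in SM against WT, 7.55% higher and 5.92% lower in DM against WT, and the median was 0. Among rows that average at least 1 CPM, 12.2% and 11.3% were called higher. At an unadjusted p below 0.05, 11.9% of all rows were higher and 11.5% lower in SM against WT, and 11.7% were higher and 11.6% lower in DM against WT. Both comparisons share the WT animals.

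The classical class II chains form the peptide-binding pair at the cell surface. H2-Aa, the I-A alpha chain, was computed at 22.6 CPM in WT, 53.9 CPM in SM and 156 CPM in DM. Its log2 fold change in the authors' deposited table was 1.25 (95% interval 0.35 to 2.16, adjusted p = 0.049) in SM and 2.79 (1.85 to 3.72, adjusted p = 3.86e-07) in DM, each against WT. H2-Ab1, its beta chain, was at 39.7, 100 and 267 CPM in WT, SM and DM. It rose by 2.75 in DM (1.55 to 3.95, adjusted p = 0.00020), while its value of 1.33 in SM had an adjusted p of 0.13 in the authors' deposited table. H2-Eb1, the I-E beta chain, was at 20.1, 40.4 and 133 CPM, with a log2 fold change of 1.01 in SM (adjusted p = 0.16) and 2.72 in DM (adjusted p = 1.56e-06) in the authors' deposited table. All of these chains had their lowest computed level in WT and their highest in DM. H2-Ea-ps, the row of the I-E alpha chain, lay at the lowest level, so the I-E pair had a measured beta chain and no measured alpha chain.

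H2-Eb2, a further beta chain gene, passed in both comparisons with fitted log2 fold changes of 5.74 and 8.41 in the authors' deposited table. Its computed WT level of 0.00404 CPM lay under the 0.0514 CPM of the lowest rows, so these fitted values depend on the model's prior count and are no measure of size. Its levels in SM and DM were 0.215 and 1.37 CPM. The class II medians were the same with the WT level of H2-Eb2 set to that lowest value. H2-Eb2 stayed above the median either way, so this is no test.

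Cd74, the invariant chain, was the most abundant class II member, at 49.2 CPM in WT, 129 CPM in SM and 301 CPM in DM. In the authors' deposited table it rose by 1.39 in SM (95% interval 0.43 to 2.35, adjusted p = 0.036) and by 2.61 in DM (1.63 to 3.60, adjusted p = 8.83e-06). The H2-DM genes encode the editor that loads peptide. H2-DMb2 rose in both comparisons in the authors' deposited table, by 2.73 in SM (adjusted p = 0.0094) and 5.10 in DM (adjusted p = 4.00e-07), from a WT level of 0.235 CPM. H2-DMa was at 1.23 in SM (adjusted p = 0.14) and rose by 2.74 in DM (adjusted p = 5.52e-05), and H2-DMb1 was at 0.37 (adjusted p = 0.71) and rose by 1.49 (adjusted p = 0.0045) in the authors' deposited table. The H2-DMb1 and H2-DMb2 proteins translated from GENCODE transcripts were 93.1% identical, so how reads were divided between these neighbours is uncertain.

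H2-Oa and H2-Ob encode H2-O, which restrains H2-DM and is known mainly from B cells and thymus. Neither passed in any comparison. Their log2 fold changes in DM against WT were 1.04 and 0.39 in the authors' deposited table, with levels at or under 1.14 CPM in each group. Ciita, the class II transactivator, was at 2.18 CPM in WT, 6.26 CPM in SM and 50.9 CPM in DM. It rose by 4.55 in DM (95% interval 2.92 to 6.18, adjusted p = 2.62e-06), and its SM value of 1.52 (0.03 to 3.01) had an adjusted p of 0.20 in the authors' deposited table.

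**Figure D1:**
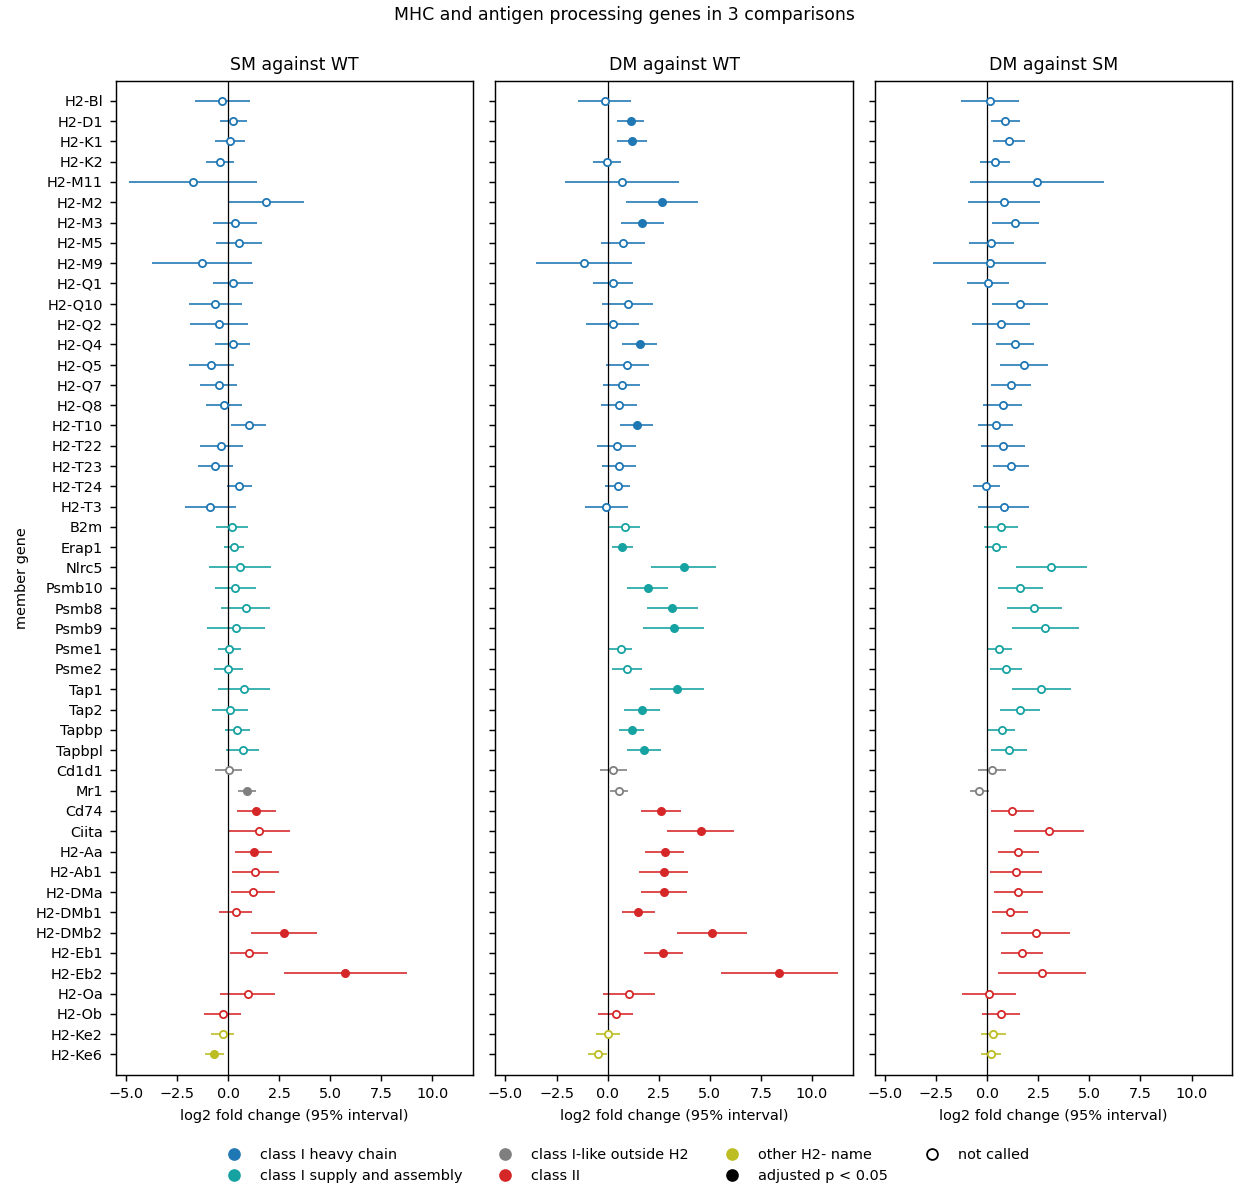
Log2 fold change with its 95% interval for the 48 members above the lowest level, in each of the 3 comparisons, with filled points for an adjusted p below 0.05 and colours for role. Class II genes (red) include 4 filled points in SM against WT and 9 in DM against WT, and no point is filled in DM against SM; the H2-Eb2 values are fitted against a WT level near 0.

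Class I heavy chain genes with an H2- name did not pass in SM against WT, and 6 of 30 passed as higher in DM against WT, per the authors' deposited table. Their median log2 fold change over all 30 was 0.00 and 0.36. This includes 9 genes at the lowest level, fixed at 0; over the 13 that average at least 1 CPM, a filter that favours genes high in DM, the medians were 0.10 and 0.96. In SM against WT, 2 of the 30 were higher and 0 lower at an unadjusted p below 0.05, beside 11.9% and 11.5% of all rows. The 9 genes at the lowest level could not reach that threshold, and 3888 of all 30431 rows lay at that level. At the same threshold 8 of 12 class II genes were higher and 0 lower.

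H2-K1 and H2-D1 are the classical heavy chains that present to CD8 T cells. H2-K1 (GRCm38, chromosome 17, 33996017 to 34000347, minus strand) was at 149 CPM in WT, 159 CPM in SM and 339 CPM in DM. Its log2 fold change in the authors' deposited table was 0.10 (95% interval -0.62 to 0.82, adjusted p = 1.0) in SM and 1.19 (0.47 to 1.91, adjusted p = 0.013) in DM. H2-D1 was at 52.5, 62.4 and 115 CPM, and its values in the authors' deposited table were 0.25 (-0.41 to 0.91, adjusted p = 0.81) and 1.13 (0.47 to 1.78, adjusted p = 0.0092). The SM interval of both genes spans 0 and ends below 1, a doubling. The H2-D1 and H2-K1 proteins were 83.4% identical.

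Of the non-classical heavy chains, H2-Q4, H2-M3, H2-T10 and H2-M2 rose in DM against WT. H2-Q4 was at 29.7, 34.6 and 88.7 CPM in WT, SM and DM, a log2 fold change of 1.58 in DM (adjusted p = 0.0044) in the authors' deposited table. H2-M3, which presents formylated bacterial peptides, was at 2.47, 3.07 and 8.0 CPM and rose by 1.70 (adjusted p = 0.018) in the authors' deposited table. H2-T10, a ligand of some gamma delta T cells, was at 0.793, 1.58 and 2.11 CPM and rose by 1.41 (adjusted p = 0.0087) in the authors' deposited table. H2-T10 and H2-T22 proteins were 93.7% identical, the one such pair at or above 90% among 25 translated heavy chains, so the H2-T10 value is uncertain. H2-K2, H2-L, H2-Q5, H2-Q8 and H2-T9 were not translated or compared, so like doubt about them and their relatives was not examined. H2-M2, at 0.0816 CPM in WT and 0.515 CPM in DM, rose by 2.66 in the authors' deposited table (implied SE 0.90, adjusted p = 0.028).

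The other heavy chain genes above the lowest level did not pass in any comparison. H2-T23, which encodes Qa-1, the ligand of the NK receptor CD94/NKG2A, was at 59.0 CPM in WT, 38.4 CPM in SM and 86.2 CPM in DM, with an adjusted p of 0.51 in DM against WT, per the authors' deposited table. H2-T24 was at 13.2, 19.2 and 18.6 CPM in that order. H2-Q7, which encodes a Qa-2 antigen, was at 15.01, 10.8 and 24.03 CPM, and H2-Q5, H2-Q8 and H2-Q10 likewise had their lowest computed level in SM. H2-Q1 and the pseudogene H2-K2 ranged from 1.62 to 3.31 CPM over the groups. H2-Bl, H2-M5, H2-M9, H2-M11, H2-Q2, H2-T3 and H2-T22 stayed under 1 CPM in each group.

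Genes of class I peptide supply and assembly were called in DM and not in SM. None of 12 passed in SM against WT and 9 of 12 passed as higher in DM against WT, per the authors' deposited table. All 12 log2 fold changes were above 0 in both comparisons, with medians of 0.36 and 1.74. In SM against WT, 0 of the 12 had an unadjusted p below 0.05 in either direction, against 11.9% higher and 11.5% lower over all rows.

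The inducible proteasome subunits replace constitutive ones when a cell makes immunoproteasome. Psmb8 was at 9.34 CPM in WT, 16.9 CPM in SM and 83.2 CPM in DM, and its log2 fold change in the authors' deposited table was 0.86 (95% interval -0.33 to 2.05) in SM and 3.16 (1.91 to 4.4, adjusted p = 2.66e-05) in DM. Psmb9 was at 4.82, 6.26 and 45.1 CPM and rose by 3.23 in DM (1.75 to 4.71, adjusted p = 0.00047) in the authors' deposited table. Psmb10 was at 15.9, 20.2 and 62.3 CPM and rose by 1.97 in DM (0.97 to 2.98, adjusted p = 0.0021) in the authors' deposited table. The constitutive counterparts Psmb5, Psmb6 and Psmb7 had values of -0.16, -0.14 and -0.23 in DM against WT, per the authors' deposited table, and none passed. The log2 ratio of inducible to constitutive subunit was therefore higher in DM than in WT by 3.31 for Psmb8 over Psmb5, 3.37 for Psmb9 over Psmb6 and 2.20 for Psmb10 over Psmb7. Over 16 constitutive proteasome and activator genes, 0 passed in any comparison, and the DM against WT values ran from -0.28 to 0.17 in the authors' deposited table, with 0 at an unadjusted p below 0.05.

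**Figure D2:**
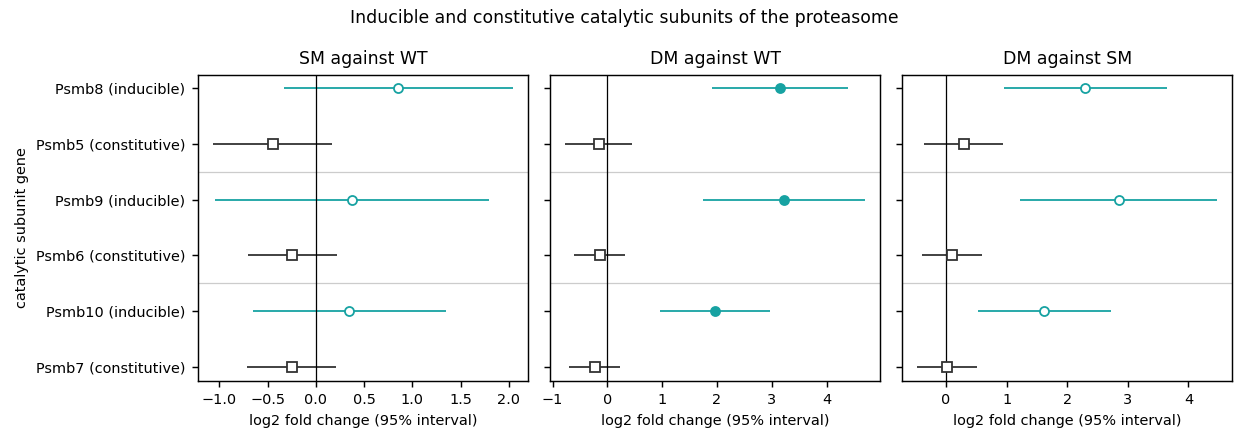
Log2 fold change with its 95% interval of each inducible catalytic subunit gene (circles) above its constitutive counterpart (squares) in the 3 comparisons, each panel on its own scale, with filled symbols for an adjusted p below 0.05. The inducible genes are at 3.16, 3.23 and 1.97 in DM against WT and the constitutive intervals all span 0.

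The PA28 activator genes, whose ring caps the proteasome, did not pass. Psme1 had a DM against WT value of 0.64 (95% interval 0.07 to 1.21, adjusted p = 0.14) and Psme2 of 0.95 (0.24 to 1.66, adjusted p = 0.063) in the authors' deposited table. The TAP transporter genes passed in DM. Tap1 was at 8.72 CPM in WT, 14.7 CPM in SM and 92.2 CPM in DM, and rose by 3.4 (2.07 to 4.74, adjusted p = 2.41e-05) in the authors' deposited table. Tap2 was at 22.9, 24.3 and 74.5 CPM and rose by 1.70 (0.82 to 2.58, adjusted p = 0.0026) in the authors' deposited table. Tap1 and Psmb9 are read in opposite directions from RefSeq start sites 226 bases apart (GRCm38.p6). Their DM values were 3.4 and 3.23 in the authors' deposited table, beside 3.16 for Psmb8, which does not start there. The implied SEs were 0.68, 0.76 and 0.63 in that order, and a link between position and value was not tested.

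Tapbp, the tapasin that bridges TAP and heavy chain, rose by 1.17 in DM (adjusted p = 0.0029), and its relative Tapbpl rose by 1.77 (adjusted p = 0.00061) in the authors' deposited table. Erap1, which trims peptides in the endoplasmic reticulum, rose by 0.72 (adjusted p = 0.036) in the authors' deposited table. B2m, the shared light chain, was the most abundant member at 309, 348 and 550 CPM in WT, SM and DM. Its DM against WT value of 0.83 (95% interval 0.05 to 1.61) had an adjusted p of 0.17 in the authors' deposited table. Nlrc5, the class I transactivator, was at 2.87, 4.28 and 37.7 CPM and rose by 3.72 in DM (2.13 to 5.31, adjusted p = 0.00015), with a value of 0.58 (-0.92 to 2.08) in SM in the authors' deposited table.

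**Figure D3:**
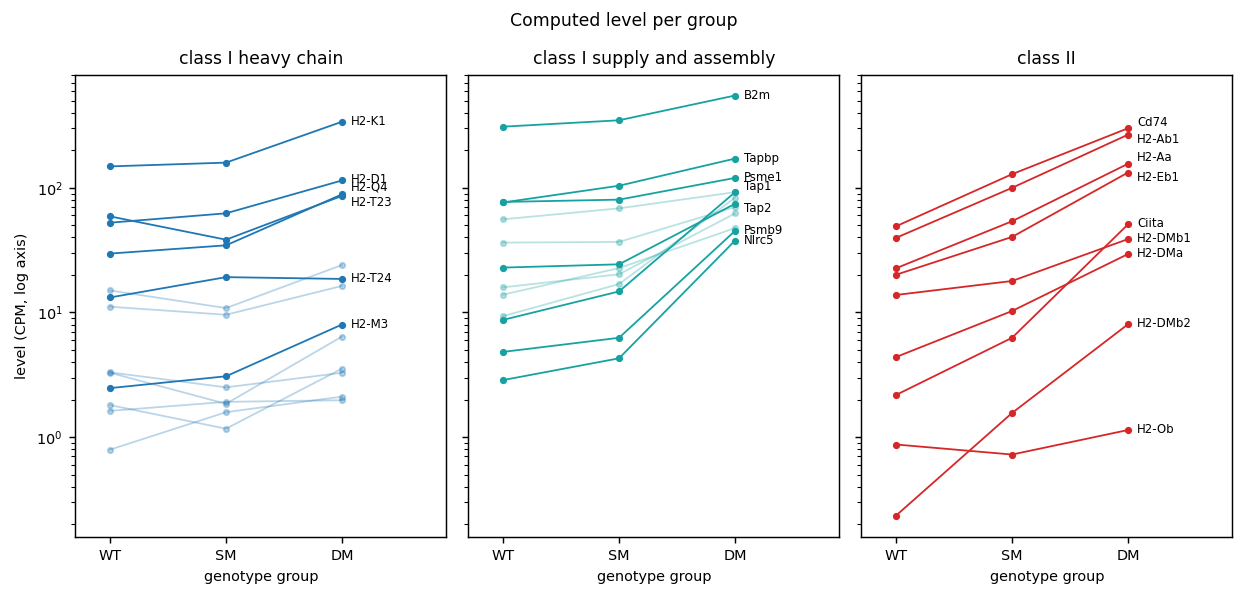
Computed level in CPM on a log axis in WT, SM and DM for members averaging at least 1 CPM and H2-Ob, in panels for class I heavy chain, class I supply and assembly, and class II, with the named genes in full colour and no error, since no level per animal was given. H2-K1 goes from 149 to 159 to 339 CPM, Tap1 from 8.72 to 14.7 to 92.2 CPM and Cd74 from 49.2 to 129 to 301 CPM.

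Set side by side, class I and class II had unequal shares of calls in both mutant groups. In SM against WT, 0 of 42 class I heavy chain and supply genes and 4 of 12 class II genes passed in the authors' deposited table. In DM against WT, 15 of 42 and 9 of 12 passed. The 42 hold 9 genes at the lowest level. Of the members averaging at least 1 CPM, a filter that favours genes high in DM, 0 of 25 class I and 3 of 8 class II genes passed in SM. In DM, 14 of 25 and 8 of 8 passed. Over all rows 7.87% were called higher in SM and 7.55% in DM, each against WT. Among rows averaging at least 1 CPM the shares were 12.2% and 11.3%. The difference between the classes was not tested, because genes of the same animals are not replicates. Levels can be set between genes only per length of annotated exons. Per kilobase, H2-K1 was at 50.6 CPM in WT, 54.2 CPM in SM and 115 CPM in DM, and H2-Ab1 was at 15.5, 38.9 and 104 CPM per kilobase. Cd74 was at 29.3, 76.6 and 179 CPM per kilobase, and B2m was at 360, 405 and 640 CPM per kilobase. H2-K1 therefore lay above H2-Ab1 and Cd74 in WT and below Cd74 in SM and DM, with no error for these order statements.

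No member passed in the direct comparison of DM with SM, the groups with and without the miR-21 null allele on the Pkd2 mutant background. Of all rows, 0.0789% were called there in either direction. The 58 members nonetheless leaned one way: 46 had a log2 fold change above 0 and 2 below, and 26 were higher at an unadjusted p below 0.05 with 0 lower in the authors' deposited table. Of all 30431 rows, 13368 had a log2 fold change above 0 and 12873 below. Over all rows 1.87% were higher at that unadjusted p, and 1.67% of rows averaging at least 1 CPM. By class, the 26 were 8 of 30 heavy chain genes, 9 of 12 supply genes and 9 of 12 class II genes. The medians were 0.40, 1.34 and 1.47 in the same order, and the heavy chain median was 1.09 over the 13 averaging at least 1 CPM. Members share regulators and cells, so these counts carry no test, and the comparison shares its SM animals with SM against WT.

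The members with the lowest p in DM against SM were the transactivators and the peptide supply genes. By deposited p, Tap1 stood at rank 52 of 30431, Nlrc5 at 55, Ciita at 68, Psmb9 at 76 and Psmb8 at 82. Tap1 had a log2 fold change of 2.64 (95% interval 1.20 to 4.09, adjusted p = 0.20) in the authors' deposited table. Nlrc5 was at 3.14 (1.4 to 4.88, adjusted p = 0.22) and Ciita at 3.02 (1.31 to 4.74, adjusted p = 0.24) in the authors' deposited table. Psmb9 was at 2.85 (1.22 to 4.48) and Psmb8 at 2.30 (0.96 to 3.64) in the authors' deposited table. H2-Eb1, at 1.72 (0.69 to 2.74, adjusted p = 0.34), was next at rank 94, followed by Tap2 at rank 95. H2-K1 was at 1.09 (0.31 to 1.87, adjusted p = 0.80), and B2m at 0.66 (-0.18 to 1.5, adjusted p = 1.0) in the authors' deposited table.

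The members had wide errors for their level. Each member's implied SE was divided by the median of rows within 0.5 log2 CPM of it. For DM against SM the median ratio was 1.69 for the 13 heavy chain genes averaging at least 1 CPM, 2.10 for the 12 supply genes and 2.36 for the 8 such class II genes, and all 33 were above 1. The ratios were 1.65, 2.07 and 2.40 for DM against WT and 1.66, 2.05 and 2.32 for SM against WT. Ciita had a ratio of 3.51 in DM against WT and Nlrc5 of 3.22, whereas Mr1 and Cd1d1 were at 0.96 and 0.998. The tables give no way to see which animals or which group carried the spread.

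**Figure D4:**
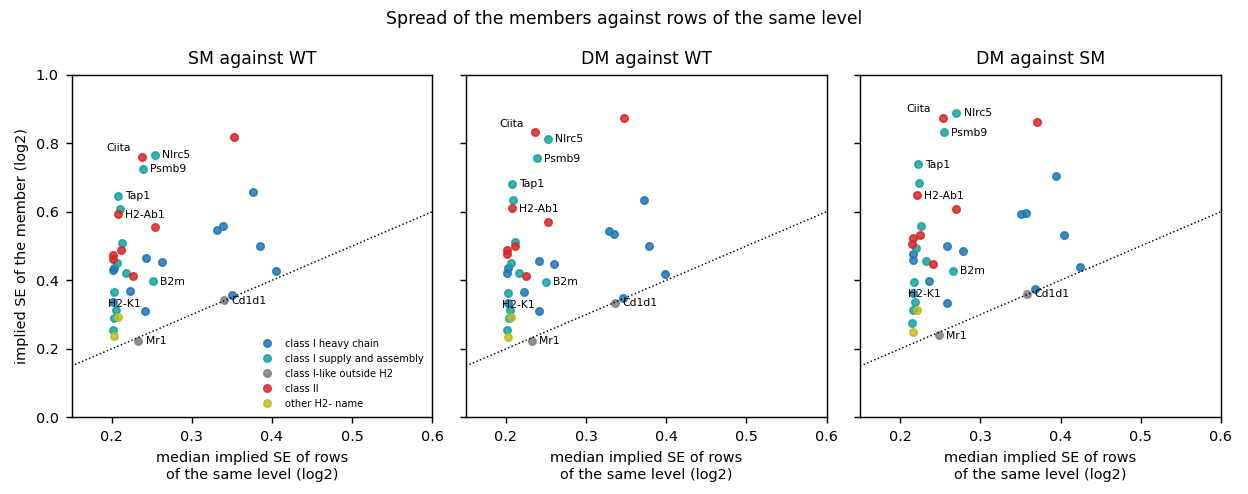
Implied SE of each member averaging at least 1 CPM against the median implied SE of rows within 0.5 log2 CPM of it, in the 3 comparisons, with colours for role and a dotted line where both are equal. Ciita, Nlrc5, Psmb9 and Tap1 lie far above the line and Mr1 and Cd1d1 lie at or near it.

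Of the class I-like genes outside the complex, Mr1 rose in SM. Mr1, which presents microbial vitamin B metabolites to MAIT cells, was at 14.0 CPM in WT, 26.4 CPM in SM and 20.3 CPM in DM. It rose by 0.91 in SM (95% interval 0.48 to 1.35, adjusted p = 0.00085) and was at 0.53 in DM (adjusted p = 0.099) against WT, and at -0.38 (-0.85 to 0.09) in DM against SM in the authors' deposited table. Cd1d1, which presents lipids to NKT cells, was at 3.39, 3.47 and 4.08 CPM and did not pass in any comparison. Of the genes with a positional H2- name, H2-Ke6, a hydroxysteroid dehydrogenase, fell by 0.67 in SM (adjusted p = 0.037) and was at -0.48 in DM (adjusted p = 0.19) in the authors' deposited table. H2-Ke2, a prefoldin subunit, did not pass.

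Genes upstream of the members were read from lists outside them. Of 10 genes of interferon gamma signalling, 3 passed as higher in SM against WT and 7 in DM against WT, per the authors' deposited table. Ifng itself was at 0.0675 CPM in WT, 0.0417 CPM in SM and 0.223 CPM in DM and did not pass (1.72 in DM against WT by the authors' deposited table, adjusted p = 0.44, implied SE 1.2). The SM level of Ifng lay under the 0.0514 CPM of the lowest rows, with WT little above it, so the differences between its levels are uncertain. Irf1, an interferon-induced transcription factor, was at 23.7, 44.9 and 131 CPM and rose by 2.47 in DM (adjusted p = 0.00037) in the authors' deposited table. Its DM against SM value was 1.54, with an adjusted p of 0.99, in the authors' deposited table. Socs3, an inhibitor of cytokine signalling, rose in both, by 2.98 in SM and 3.48 in DM against WT, per the authors' deposited table.

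The factors that bind the X and Y boxes with Ciita or Nlrc5 (Rfx5, Rfxap, Rfxank, Nfya, Nfyb, Nfyc and Creb1) did not pass in any comparison. Their DM against WT values ran from -0.49 to 0.44 in the authors' deposited table, and at an unadjusted p below 0.05 2 of 7 were lower in DM, 1 was higher and 1 lower in SM, and 0 differed between DM and SM. The general chaperones and enzymes of class I loading (Calr, Canx, Pdia3, Hspa5 and Lnpep) did not pass either, with values from 0.03 to 0.69 in DM against WT, per the authors' deposited table, 1 of 5 being higher at an unadjusted p below 0.05. Of 9 genes of endosomal processing, 3 passed as higher in SM and 1 in DM, each against WT. Ctss, the cathepsin that cleaves the invariant chain, was at 9.48 CPM in WT, 56.4 CPM in SM and 62.6 CPM in DM. It rose by 2.57 in SM and 2.72 in DM, and was at 0.15 (95% interval -0.49 to 0.80) in DM against SM in the authors' deposited table. Ctsd, an endosomal protease, and March1, a ligase that removes class II from the surface, passed in SM at 0.72 and 1.22 in the authors' deposited table.

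Markers of leukocytes, only some of which carry class II, and markers of macrophages rose in SM. All 5 leukocyte markers rose in both mutant groups, and their summed level was 30.4 CPM in WT, 107.6 CPM in SM and 122.4 CPM in DM. Of 9 macrophage markers, 9 rose in SM and 8 in DM, with summed levels of 117, 384 and 399 CPM in WT, SM and DM. In DM against SM the median log2 fold change was 0.25 for the leukocyte markers (range -0.13 to 0.66) in the authors' deposited table. It was -0.14 for the macrophage markers (range -0.49 to 0.59) and 1.47 for class II genes (range 0 to 3.02). Of 8 dendritic cell markers, 4 rose in each mutant group (Itgax, Flt3, Ccr7 and Cd209a), and 2 were lower in SM at an unadjusted p below 0.05. These were Batf3, at -0.79 (adjusted p = 0.16), and Zbtb46, at -0.51 (adjusted p = 0.099), by the authors' deposited table. The summed level was 29.2, 27.7 and 31.8 CPM, of which Zbtb46 gave 22.5, 15.8 and 18.0 CPM. None of 6 B cell markers passed, at summed levels of 4.02, 4.77 and 6.01 CPM, and 1 was higher at an unadjusted p below 0.05 in DM against WT.

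T cell markers were mixed, whereas all NK and cytotoxic markers had log2 fold changes above 0 in each comparison. The lowest of these were 0.24 in SM and 1.66 in DM against WT, and 0.21 in DM against SM. Of 7 T cell markers, 1 passed in SM (Lck) and 3 in DM (Cd8b1, Cd3g and Lck), with summed levels of 8.95, 10.9 and 16.0 CPM in WT, SM and DM. Cd8a, at 3.43, 1.47 and 2.91 CPM, was lower in SM at an unadjusted p below 0.05 (-1.22, adjusted p = 0.18) and at -0.24 (adjusted p = 0.98) in DM by the authors' deposited table, each against WT. Cd4 was at 0.64 in SM and 0.40 in DM against WT by the authors' deposited table, and did not pass. Of 7 NK and cytotoxic markers, 1 passed in SM and 5 in DM, with summed levels of 0.970, 1.84 and 9.10 CPM. Gzmb, the granzyme of cytotoxic cells, was at 0.116 CPM in WT, 0.157 CPM in SM and 2.9 CPM in DM, and was at 4.20 (adjusted p = 0.12, implied SE 1.1) in DM against SM in the authors' deposited table. None of the T, NK or B cell markers passed in DM against SM, where 3 T cell and 3 NK and cytotoxic markers were higher at an unadjusted p below 0.05. No marker in these lists lay at the lowest level by its average over all libraries. The computed WT level of Cd8b1, 0.0505 CPM, was under the 0.0514 CPM of the lowest rows, so the size of its change is uncertain. Of 5 endothelial markers, 3 fell in DM against WT, from a summed level of 583 CPM in WT to 405 CPM in DM. The part of these cell types in the members' values was not tested.

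**Figure D5:**
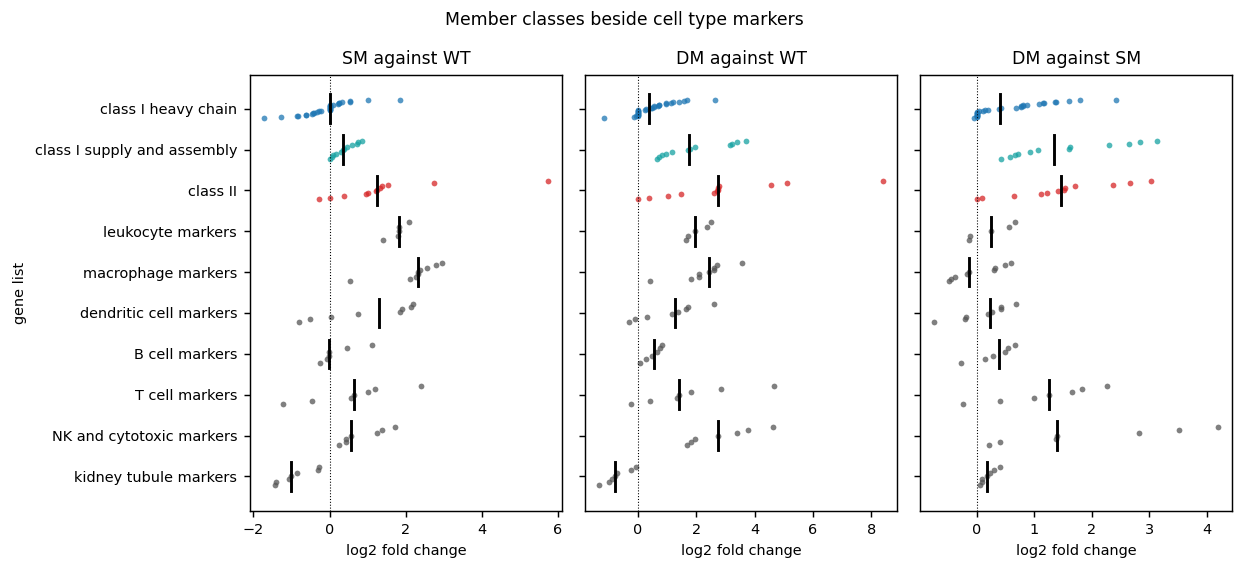
Log2 fold change of each gene (points) and the median (bars) for all members of the class I heavy chain, class I supply and class II lists and for 7 lists of cell type markers, in the 3 comparisons, each panel on its own scale. In DM against SM the macrophage median is -0.14 and the class II median 1.47, and the NK and cytotoxic list has a median of 1.39.

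Position on chromosome 17 was also examined, since 44 of the 55 members found in GENCODE M21 lie there. Between the outermost H2 genes (GRCm38, chromosome 17, 33938821 to 37483552) were 147 named genes that are no members. In SM against WT, 14 (9.52%) of them were higher and 5 (3.4%) lower by the authors' deposited table, beside 7.87% and 6.09% of all rows. In DM against WT, 18 (12.2%) were higher and 5 (3.4%) lower by the authors' deposited table, beside 7.55% and 5.92% of all rows. Their median was 0.00 in SM, 0.14 in DM and 0.13 in DM against SM, where 0 passed and 8 (5.44%) were higher at an unadjusted p below 0.05, beside 1.87% of all rows. Ubd, which encodes the ubiquitin-like FAT10, was singled out after its values were seen. It was at 2.56 (adjusted p = 0.11) in SM, 6.81 (adjusted p = 8.39e-06) in DM, and 4.24 (adjusted p = 0.38) in DM against SM in the authors' deposited table. Members were chosen by name, so MHC genes without an H2- prefix would be counted among the 147. Gm11127 lies between H2-T22 and H2-Bl, and Gm8909 between H2-T10 and H2-T3. In SM against WT they were at -2.09 (adjusted p = 0.00029) and 1.87 (adjusted p = 0.033) in the authors' deposited table. Whether they encode heavy chains was not examined.

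Sites for miR-21 were sought because DM lacks it. The RefSeq mature sequence is printed with the seed, bases 2 to 8, in capitals.
mmu-miR-21a-5p, chr11:86584120-86584141, minus strand (GRCm38.p6): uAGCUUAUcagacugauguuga
The matching word ATAAGCT was in the longest annotated 3′ UTR of 0 of the 51 members with such a UTR in GENCODE M21, against 8.12% of 12825 genes averaging at least 1 CPM. The 51 include members under 1 CPM, unlike the genes set beside them. UTR length was not matched, and it ran from 44 bases in Psme2 to 2676 bases in Ciita. No match says only that this word is not in those annotated UTRs.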

How the data were processed

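Stranded total RNA libraries were sequenced from 10 whole kidneys (4 WT, 3 SM, 3 DM), per the labels' protocols. Tools listed in the submitters' processing notes, without their roles, are edgeR 3.2.4, Subread 1.4.6, featureCounts, Cufflinks, TopHat2 2.0.12 and bcl2fastq 1.8.4, with the build mm10. The authors deposited 3 comparison tables. Per the file headers, the columns are an average log2 CPM, a log2 fold change, a likelihood ratio score, a p-value and a false discovery rate, called adjusted p here. Computation on the files showed that the authors adjusted p-values by Benjamini-Hochberg across the 30431 rows and that the 3 tables are contrasts of a single fit, so the average is over all 10 libraries. Separate animals carry separate numbers in the labels. No value per library was analysed, so depth is unknown, no counting interval is given and the planned count tests were not run.

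From these, group levels in CPM were computed by weighting libraries equally, the implied SE as the absolute log2 fold change over the root of the likelihood ratio, and 95% intervals as 1.96 implied SE either side. The calculation was tested on simulated data. The adjusted p threshold was 0.05. Members with a name in GENCODE M21 or RefSeq were matched by symbol or synonym. Python 3.11.15, pandas 2.3.3, SciPy 1.17.1, Biopython 1.88 and matplotlib 3.10.9 were used. Named genes were the classical chains, the processing genes, the transactivators, all called members, Ifng, Irf1 and, from other lists, up to 3 genes by lowest p in DM against WT; one further gene of the rule is not reported here. The members and all lists were chosen with earlier results of these data known.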

Additional observations from a re-analysis of the deposited data

How the results depend on the processing

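At an adjusted p below 0.01, 3 members were called in SM against WT in place of 6 (Cd74, H2-Aa and H2-Ke6 dropped out) and 2 class II genes in place of 4, and 3 class I heavy chain genes were called in DM against WT in place of 6 (H2-K1, H2-M2 and H2-M3 dropped out, with Erap1 among the supply genes). Over members averaging at least 1 CPM the heavy chain median log2 fold change was 0.96 in DM against WT and 1.09 in DM against SM; that filter favours genes high in DM. Adjusting over rows of at least 1 CPM added Psme2 in DM against WT. Adjusting over named rows and centring changed no member's call. Leaving out H2-T10 and H2-T22 kept the deposited adjusted p of the other members, so it could only drop the call of H2-T10. No setting gave a call in DM against SM or turned a called direction. Only adjusting over other rows or centring could have added a call, and only centring could have turned a direction. No paired analysis was possible because the animals carry unrelated numbers. Leaving out animals and the edgeR and DESeq2 count fits were not run, as they need values per library. The sources used here give neither depth nor strain nor the spread within each group, and implied SEs are approximate, least reliable for genes near the lowest level.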

Other observations

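Genes of co-stimulation and checkpoint, and genes of class I fold outside the complex, were read from further lists. Of 6 co-stimulation and checkpoint genes, 3 passed as higher in SM against WT and 4 in DM against WT, per the authors' deposited table. Cd86 and Cd80, which engage CD28, rose in both mutant groups: Cd86 was at 1.18 CPM in WT, 4.79 CPM in SM and 4.64 CPM in DM, and Cd80 at 0.120, 0.476 and 0.513 CPM. Icosl rose by 0.83 in SM and 0.84 in DM in the authors' deposited table. Cd274, which encodes the checkpoint ligand PD-L1, was at 4.36, 3.88 and 18.1 CPM in WT, SM and DM. It was at -0.17 (adjusted p = 1.0) in SM and rose by 2.05 (adjusted p = 0.025) in DM against WT, and it was at 2.22 (adjusted p = 0.65, implied SE 0.76) in DM against SM in the authors' deposited table.

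Of 13 genes of class I fold outside the complex, 3 were higher and 1 lower in SM against WT, and 4 were higher and 1 lower in DM against WT, per the authors' deposited table. The list joined the Raet1, Ulbp1 and H60 genes to Fcgrt, Hfe, Azgp1, Procr and Cd1d2, and not all encode NK receptor ligands. At the lowest level lay 3 of the 13. Ulbp1, a ligand of the NK receptor NKG2D, was at 0.454 CPM in WT, 1.64 CPM in SM and 1.46 CPM in DM. Azgp1, a secreted protein of class I fold, was at 1.31, 0.0813 and 0.0909 CPM. H60c, another NKG2D ligand, was at 0.542 CPM in DM and passed as higher than WT (adjusted p = 0.0016) in the authors' deposited table, from a WT level under that of the lowest rows.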
